A study of Mus musculus with 2 samples.

Results

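Serpins and Spinks are families of protease inhibitors, many of them secreted, that epithelia and glands of the mouse make. The genes described here are the rows of the deposited table whose Ensembl identifier maps to a mouse symbol that begins with Serpin, a clade letter from a to i and a digit, or with Spink and a digit. Of 18724 rows, 36 matched, and 1 pseudogene with a -ps symbol, Serpina3e-ps, was left out, which leaves 35 members: 29 serpins and 6 Spinks. The reference annotation names 75 such genes, and the other 40 had no row and were not analysed here.

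The study sorted luminal epithelial cells of the mouse prostate at 18 weeks of age by flow cytometry. The label-retaining library came from luminal GFP-positive cells, which had kept a histone 2B-GFP label that is diluted at each division. The non-retaining library came from luminal GFP-negative cells of the same age. Both were total RNA from freshly purified cells, with 1 library in each group. Nothing in the labels used here states the strain, the promoter of the GFP transgene, the length of the chase or how many mice were pooled. The comparison asks how slowly dividing luminal cells differ from the other luminal cells.

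A serpin acts as bait. The target protease cuts an exposed reactive centre loop, the loop folds into the body of the serpin, and the protease is dragged along, distorted and held by a covalent bond. Spinks carry small, disulfide-rich Kazal domains that sit in the active site of trypsin-like proteases like a substrate that is released very slowly. In male accessory glands such inhibitors are secreted into seminal fluid, where they restrain proteases of the gland and of sperm, whereas the clade B serpins lack a classical signal peptide and mostly act inside the cell.

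The label-retaining library held 50689229 reads in the table and the non-retaining library 48334265. Since each group had 1 library, differences could not be checked against replicates and no test was run. Every value compares these 2 libraries, and intervals cover counting error only. A gene was called measured at a mean normalised count of at least 10. It was called higher or lower when its log2 ratio (label-retaining over non-retaining, with 0.5 added to each normalised count) lay at or beyond 1 or -1 and the exact 95% counting interval excluded 0. Markers of other cell types did not all go one way under the deposited scaling. In the label-retaining library 17 of 17 measured basal epithelial markers and 14 of 14 T and natural killer cell markers were lower, as were 9 of 10 smooth muscle and 7 of 12 endothelial markers. Macrophage and myeloid markers had 4 higher and 0 lower of 11, with Mrc1 at 260 reads against 93 (1.61). Seminal vesicle secretion genes had 10 of 10 higher. Luminal markers had 7 of 14 higher and 0 lower. Of all measured genes, 14.5% were higher and 19.4% lower. In bulk samples such as these, fewer cells of a type and less RNA per cell cannot be told apart.

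Of the 35 members, 31 were measured. Among these 31, 13 were called higher, against 14.5% of all measured genes called higher, and 12 lower, against 19.4% of all measured genes called lower. The measured members' median log2 ratio was -0.02, beside -0.0052 for all 17183 measured genes, so a median near 0 covered members far apart in both directions. At a threshold of 4-fold, 8 members were higher (4.32% of all measured genes) and 10 lower (9.64%). When both libraries were scaled so that the luminal keratins Krt8 and Krt18 averaged a log2 ratio of 0, ratios moved by -0.76, or somewhat less at low counts because of the added 0.5. Of the 30 members then measured, 7 were higher, against 5.35% of all measured genes, and 14 lower, against 40.5%, so the lower count lay near the share of all genes. No called member changed sign. Below, this is called the keratin scaling. Under it, macrophage and myeloid markers had 1 higher and 5 lower of 11, and endothelial markers 0 higher and 11 lower of 12. Luminal markers then had 6 higher and 2 lower of 14.

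**Figure D1:**
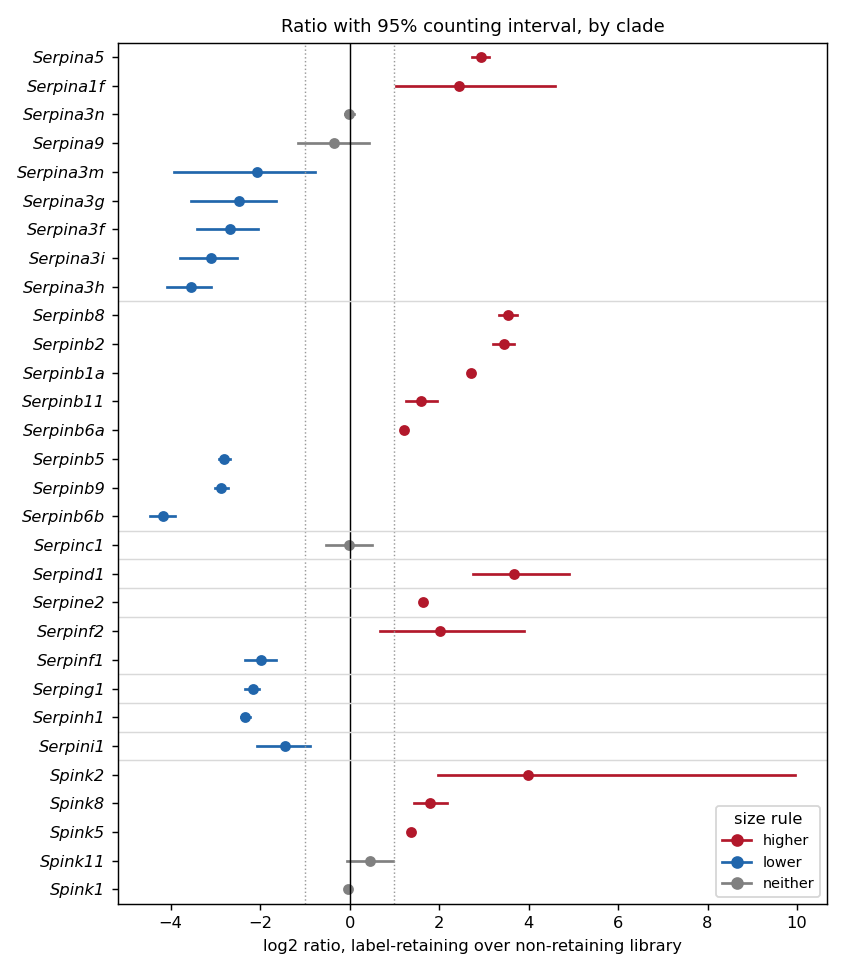
Log2 ratio (label-retaining over non-retaining library, x axis) of 30 measured Serpin and Spink genes, grouped by clade and separated by grey lines, with bars for the 95% counting interval, dotted lines at 2-fold, and colour for the call by size. The 13 higher members include 5 of clade B and 3 Spinks, and the 12 lower ones include 5 Serpina3 paralogs.

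The sequences below show the 250 bases before the start site of a trio of clade B genes that lie along the same stretch of chromosome 1 and differed in opposite directions. Serpinb5 was lower in the label-retaining library, and Serpinb2 and Serpinb8 were higher. They are shown 5′ to 3′ on the plus strand, which is the strand of all 3 genes, from RefSeq on GRCm38.p6. Capitals mark matches on either strand to the AP-1 letters TGANTCA, the TATA box TATAAA and the CCAAT box CCAAT.
Serpinb5, chr1:106860925-106861174: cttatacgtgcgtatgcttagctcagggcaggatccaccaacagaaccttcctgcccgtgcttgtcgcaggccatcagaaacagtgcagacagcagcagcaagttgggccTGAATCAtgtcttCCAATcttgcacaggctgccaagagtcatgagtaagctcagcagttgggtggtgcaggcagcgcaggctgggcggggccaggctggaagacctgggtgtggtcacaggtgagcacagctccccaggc
Serpinb2, chr1:107511173-107511422: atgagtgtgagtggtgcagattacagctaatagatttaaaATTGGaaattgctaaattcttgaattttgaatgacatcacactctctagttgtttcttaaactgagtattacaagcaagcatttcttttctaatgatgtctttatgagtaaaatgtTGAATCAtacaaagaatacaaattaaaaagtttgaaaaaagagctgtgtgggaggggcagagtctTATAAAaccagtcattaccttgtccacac
Serpinb8, chr1:107589756-107590005: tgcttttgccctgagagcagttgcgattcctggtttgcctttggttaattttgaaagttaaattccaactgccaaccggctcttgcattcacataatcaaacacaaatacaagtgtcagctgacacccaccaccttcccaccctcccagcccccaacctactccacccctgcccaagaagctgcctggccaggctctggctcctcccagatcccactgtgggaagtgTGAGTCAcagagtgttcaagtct

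The letters TGANTCA stood in all 3 windows, beginning at -140 from the start site in Serpinb5, at -94 in Serpinb2 and at -23 in Serpinb8. The match read TGAATCA in Serpinb5 and Serpinb2 and TGAGTCA in Serpinb8. The Serpinb2 window also held TATAAA at -29. Serpinb11, which lies between Serpinb5 and Serpinb2, was also higher and is not printed. Its window held TGANTCA at -181 and -76 and CCAAT at -161. Of 32851 RefSeq promoter windows of this length, 6.75% held TGANTCA, 12.4% TATAAA and 33.8% CCAAT. Promoters were found for 24 of the 35 members. Among these, 3 of 10 members called higher and 1 of 9 called lower had TGANTCA. The androgen receptor half-site AGAACA was found in 1 of 10 higher and 1 of 9 lower members, against 16.1% of all windows. A match describes letters only, and whether a factor binds there was not measured. No motif searched overlapped another in the printed windows.

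By level the Spinks dominated the families. Spink1 and Spink5 together held 57.8% of all member reads in the label-retaining library and 50.6% in the non-retaining library. All 35 members took 0.194% of the label-retaining reads and 0.152% of the non-retaining reads. To compare genes, levels are given per length, as reads per kilobase of annotated exon per 1000000 reads of the table. On this scale Spink1 stood at 506 in the label-retaining library and 595 in the non-retaining one, ranks 57 and 66 of 17111 measured genes with a length. Spink5 stood at 158 and 70.1, and Serpinb1a, the highest serpin of the label-retaining library, at 92.9 and 16.3. In the non-retaining library the highest serpin was Serpinh1, at 53.1, against 9.17 in the label-retaining library. Per length, the leading serpin thus differed between the libraries, whereas the leading Spink was the same. By reads the leading Spink differed too. Spink5 held 38.9% and Spink1 19.0% of member reads in the label-retaining library. In the non-retaining library Spink1 held 28.5% and Spink5 22.1%.

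**Figure D2:**
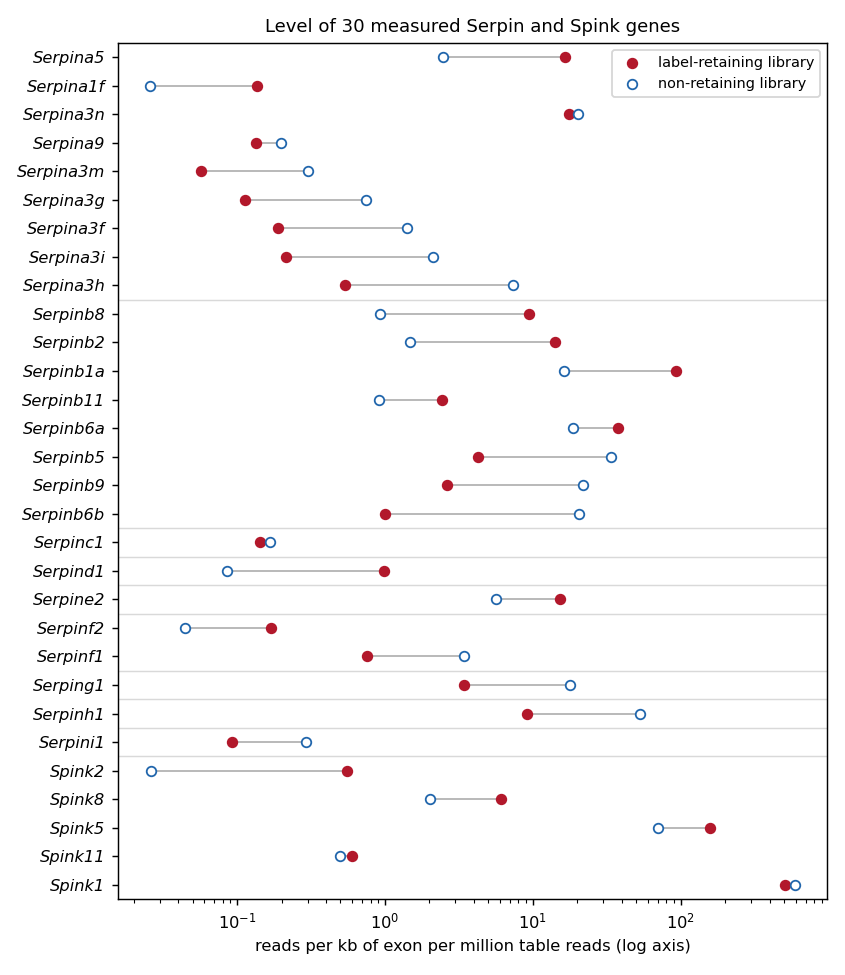
Level of 30 measured members in the label-retaining (filled) and non-retaining (open) libraries, in reads per kilobase of exon, scaled to library size, on a log axis, grouped by clade. Spink1 lies near 506 and 595, while Serpinb6b is at 0.994 in the label-retaining library and 20.6 in the non-retaining one.

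Spink1, also known in the mouse as Spink3, encodes a trypsin inhibitor made by the pancreas and secreted by male accessory glands. It had 18682 reads in the label-retaining library and 20971 in the non-retaining library, a log2 ratio of -0.03 (counting interval -0.06 to -0.0047). Per length it had the highest level of the members in both libraries, and it was about equal in both libraries under the deposited scaling. Spink5 encodes LEKTI, a protein of many Kazal-type domains that restrains kallikreins in the epidermis. It had 38292 reads against 16222, a log2 ratio of 1.37 (1.35 to 1.40). Its higher level was under the 2-fold rule when scaled on the luminal keratins, at 0.61.

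The other Spinks were far less abundant. Spink8 had 254 reads in the label-retaining library and 80 in the non-retaining library (log2 ratio 1.79, 1.43 to 2.18). Spink11 had 75 and 60 reads (0.45, -0.05 to 0.97), and its interval held equality. Spink2, which in human and mouse is an inhibitor of the sperm protease acrosin, had 22 reads against 1 (3.99, 1.96 to 9.96), so its ratio is poorly fixed. Of 5 measured Spinks, 3 were thus higher and 0 lower, against 14.5% and 19.4% of all measured genes. Of the 3, only Spink8 stayed called under the keratin scaling. Spink10, with 1 read against 5, was not measured. Spinkl, a related gene outside the naming rule whose protein is known from the mouse seminal vesicle, had 50 reads against 14 (1.93, 1.09 to 2.94). The seminal vesicle secretion list, which includes Spinkl, summed to 84428 normalised counts in the label-retaining library and 782 in the non-retaining one. The part of that signal in the Spink values was not tested.

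Clade A holds the secreted serpins related to alpha-1 antitrypsin. All 10 members lie on chromosome 12 between Serpina1f (start 103688044) and Serpina3n (end 104414329), on mm10. Of 9 measured, 2 were higher and 5 lower, against 14.5% and 19.4% of all measured genes. Serpina5 encodes the protein C inhibitor, which in the mouse is made mainly in the male reproductive tract. It had 1802 reads in the label-retaining library and 259 in the non-retaining library, a log2 ratio of 2.93 (2.74 to 3.13), and it remained called under the keratin scaling. Serpina1f, an alpha-1 antitrypsin relative, had 22 reads against 4 (2.44, 1.04 to 4.59). The higher clade A genes therefore ranged from well measured to barely measured. The seminal vesicle secretion genes were higher too, as given above, and their part in the Serpina5 value was not tested.

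The Serpina3 paralogs, which descend from a single alpha-1 antichymotrypsin-like gene that has multiplied in rodents, did not move together. Serpina3n, the one with the most reads in either library and an inhibitor of granzyme B in the mouse, had 1845 reads in the label-retaining library and 2031 in the non-retaining one, a log2 ratio of -0.01 (-0.10 to 0.09). The 5 other measured paralogs were all called lower. Serpina3h, which the reference annotation classes as a transcribed pseudogene, had 39 reads against 508 (-3.55, -4.08 to -3.10). Serpina3i had 24 reads against 229 (-3.09) and Serpina3f 22 against 156 (-2.66). Serpina3g, known in mouse lymphocytes as an inhibitor of lysosomal cathepsins, had 12 against 76 (-2.48), and Serpina3m 5 against 25 (-2.08). Summed over these 5, the label-retaining library had 102 reads and the non-retaining library 994. Between 10.6% and 21.9% of the 50-base stretches of these 5 genes' transcripts also occur in transcripts of another gene, against 6.9% for Serpina3n, so reads could have been shared or dropped among the copies. T and natural killer cell markers summed to 206 normalised counts in the label-retaining library and 13259 in the non-retaining one, with Gzma at 0 reads in the label-retaining one, and their part in the Serpina3 values was not tested. Serpina9, known in germinal centre B cells, had 25 and 35 reads and an interval that held equality, and Serpina1b, with 2 and 12 reads, was not measured.

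Clade B, the intracellular serpins, split most sharply. All 8 measured members were called, 5 higher and 3 lower, against 14.5% and 19.4% of all measured genes. The clade's log2 ratios ran from 3.54 to -4.16. Under the keratin scaling, 3 were higher and 3 lower. Serpinb6c (7 and 9 reads) and Serpinb9b (0 and 15 reads) were not measured. The higher members formed the more abundant side in the label-retaining library, which sorting by the ratio favours. In the non-retaining library the clade B members with the most reads were Serpinb6a, at 4891, and Serpinb5, a lower member, at 4521.

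Serpinb1a, an inhibitor of neutrophil elastase and cathepsin G, had 10842 reads in the label-retaining library and 1814 in the non-retaining library, a log2 ratio of 2.71 (2.64 to 2.79). It lies on chromosome 13 from 32842092 to 32851185, minus strand. Serpinb6a, an inhibitor of cathepsin G and trypsin-like proteases found in many tissues, had 10323 reads against 4891 (1.21, 1.16 to 1.26) and was no longer called under the keratin scaling, at 0.45. Its exons overlap Nqo2, 1110046J04Rik and Ripk1 on the opposite strand, over 14.1%, 10.8% and 4.46% of their length. No source used here says whether the counting took account of strand. Serpinb8, which can inhibit the proprotein convertase furin, had 2281 reads against 215 (3.54, 3.34 to 3.75). Serpinb2, plasminogen activator inhibitor type 2, had 1676 against 169 (3.44, 3.21 to 3.68), with 12.4% of its exons shared with Serpinb10 on the same strand. Those 2 had the highest ratios of clade B and were more than 8-fold higher in the label-retaining library. Serpinb11, which inhibits trypsin in the mouse, had 269 reads against 97 (1.60, 1.27 to 1.96) and also lost its call under the keratin scaling, at 0.84.

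On the lower side, Serpinb5 encodes maspin, a serpin that does not inhibit proteases and is known from basal and myoepithelial cells. It had 590 reads in the label-retaining library and 4521 in the non-retaining library, a log2 ratio of -2.80 (-2.93 to -2.68). Basal markers were lower throughout: their sum was 63866 normalised counts in the label-retaining library and 536941 in the non-retaining one, and 0 of 17 were at 0 reads in either. The basal keratin Krt5 had 962 reads against 28725 (-4.77) and the hemidesmosome collagen Col17a1 1345 against 40500 (-4.78). Serpinb5 was thus nearer to equality than either of these genes, and the part of basal cells in its value was not tested.

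Serpinb9 encodes the inhibitor of granzyme B that shields killer cells from their own granules. It had 464 reads in the label-retaining library and 3718 in the non-retaining library (-2.87, -3.01 to -2.73). Serpinb6b, a paralog of Serpinb6a, had 114 reads against 2248 (-4.16, -4.45 to -3.90), the lowest ratio of all measured members. Per length, Serpinb6a and Serpinb6b stood at 37.7 and 0.994 in the label-retaining library and at 18.7 and 20.6 in the non-retaining library. The paralogs were thus at similar levels in the non-retaining cells and far apart in the label-retaining ones. Of Serpinb6b's 50-base stretches, 2.92% occur in another gene on either strand, against 25.1% for Serpinb6a. The Serpinb6a level is therefore the less certain of the pair. Of the granule proteases, Gzmb and Gzma were lower by more, while Gzmm (102 against 125 reads, -0.16) and Gzmc (207 against 127, 0.84), chosen after their values were seen, were not called. Gzmb had 11 reads against 4705 (-8.54, -9.61 to -7.77), and Gzma had 0 against 2234, at least 679-fold lower by a floor of 3 reads in the library at 0. The 14 T and natural killer cell markers had a median log2 ratio of -5.57, and the highest was -3.21 (Cd3e, 43 reads against 441). Only Gzma among them was at 0 reads in the label-retaining library. The part of lymphocytes in the Serpinb9 and Serpinb6b values was not tested.

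Neighbouring serpin genes differed in direction at some places and shared it at others. Along chromosome 1, Serpinb5 (106861173 to 106883348) was lower, and Serpinb11, Serpinb2 and Serpinb8 (107590006 to 107610484), further along on the same strand, were higher. On chromosome 13, Serpinb6b (32965209 to 32979067) and Serpinb9 (33003250 to 33017957) are neighbours and were both lower, while Serpinb1a and Serpinb6a on either side of them were higher. In the chromosome 12 array, the 5 lower Serpina3 genes lie between the higher Serpina5 and the nearly equal Serpina3n.

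**Figure D3:**
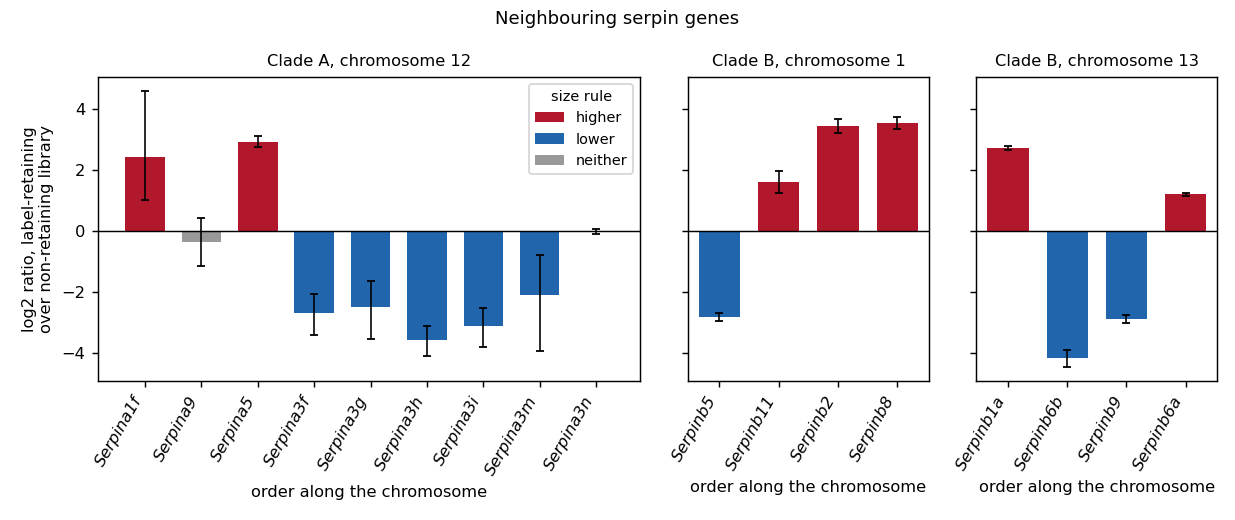
Log2 ratio (label-retaining over non-retaining library, y axis) of measured serpins in order along chromosomes 12, 1 and 13, with 95% counting intervals as bars and colour for the call by size. Adjacent genes share a direction in the Serpina3 block and for Serpinb6b with Serpinb9, while Serpinb5 at -2.80 and Serpinb8 at 3.54 lie at opposite ends of the chromosome 1 group.

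Serpins known from coagulation, plasminogen activation and nerve tissue differed in direction, with Serpine2, Serpind1 and Serpinf2 higher, Serpini1 lower and Serpinc1 neither. Serpine2, protease nexin 1, which inhibits thrombin and urokinase and is needed for normal seminal vesicle function in the mouse, had 6399 reads in the label-retaining library and 2265 in the non-retaining library (1.63, 1.56 to 1.70). Under the keratin scaling it lost its call, at 0.87. Serpind1, heparin cofactor II, had 110 reads against 9 (3.67, 2.77 to 4.91). Serpinc1, antithrombin, had 62 and 69 reads, and 34.4% of its exons overlap Zbtb37 on the opposite strand, so its level is uncertain. Serpinf2, which inhibits plasmin, had 20 reads against 5 (2.02, 0.68 to 3.90) and lost its call under the keratin scaling. Serpini1, neuroserpin, an inhibitor of tissue plasminogen activator, had 34 against 103 (-1.45, -2.07 to -0.89).

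The proteases these serpins meet were not uniform. Of 20 measured genes of plasminogen activation, coagulation and their receptors, 5 were higher and 11 lower, against 14.5% and 19.4% of all measured genes. The list's median log2 ratio was -1.25, beside -0.0052 for all measured genes. Under the keratin scaling 2 of 19 were higher and 13 lower, against 5.35% and 40.5% of all measured genes. The gene with the most reads summed over both libraries was tissue factor, F3, with 5759 reads in the label-retaining library and 28575 in the non-retaining library (-2.18). The lower side was led by the thrombin receptor F2r, with 209 reads against 4022 (-4.13), and by Lrp1, the endocytic receptor that clears serpin-protease complexes, with 3414 against 18712 (-2.32). On the higher side by the naming rule, thrombin, F2, had 22 reads against 1 (3.99, 1.96 to 9.96), and the transglutaminase subunit F13a1 had 38 against 0, at least 13.9-fold higher by the floor of 3 reads. Chosen after their values were seen because their products are the plasminogen activators that serpins restrain, Plat, with 15563 reads against 5113 (1.74), and Plau, with 4395 against 1953 (1.30), were higher. The urokinase receptor Plaur was lower, with 5808 against 19069 (-1.58). The activators and the urokinase receptor thus differed in direction under the deposited scaling. With the keratin scaling's shift of -0.76, Plat and Plau fall under the 2-fold rule.

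Serping1, the C1 inhibitor, restrains the first proteases of complement and the contact system. It had 406 reads in the label-retaining library and 2008 in the non-retaining library (-2.17, -2.33 to -2.02). Of 8 measured complement and contact proteases, 5 were higher and 0 lower, against 14.5% and 19.4% of all measured genes. The list's median log2 ratio was 1.55, and 3 were higher and 0 lower under the keratin scaling. C1rb had 101702 reads against 19725 (2.50) and C1s2 had 6031 against 868 (2.93). Both have close copies in C1ra and C1s1, so the split of reads between copies is uncertain. Not called were C1s1, C2 and Masp1.

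Serpinf1 and Serpinh1 do not inhibit proteases. Serpinf1, pigment epithelium-derived factor, a secreted inhibitor of vessel growth, had 90 reads in the label-retaining library and 391 in the non-retaining library (-1.98, -2.33 to -1.65). Serpinh1 encodes HSP47, the collagen chaperone of the endoplasmic reticulum, and had 1136 against 6266 (-2.33, -2.42 to -2.24). Fibroblast markers were split, 4 higher and 4 lower of 12 measured (0 and 4 under the keratin scaling), with sums of 21077 and 94938 normalised counts. Decorin, Dcn, had 4930 reads against 92262 (-4.09) and Pdgfra 66 against 1872 (-4.68), while Lum had 169 against 64 (1.53) and the collagen gene Col5a1 3248 against 1401 (1.35). None of the 12 was at 0 reads in the label-retaining library. Smooth muscle markers summed to 4062 and 42882 normalised counts, with 0 higher and none at 0 reads in the label-retaining library, led by Tpm2 with 499 reads against 12646 (-4.53). The part of stromal cells in Serpinf1, Serping1 and Serpinh1 was not tested.

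Other collagen-processing genes differed from Serpinh1. Of 20 measured, 5 were higher and 6 lower, against 14.5% and 19.4% of all measured genes. The list's median log2 ratio was -0.22. Under the keratin scaling 1 was higher and 10 lower, against 5.35% and 40.5% of all measured genes. P4hb, the disulfide isomerase subunit of prolyl hydroxylase, had 82532 reads in the label-retaining library and 38683 in the non-retaining library (1.23), and P4ha3 had 111 against 13 (3.17). The procollagen protease Bmp1 had 703 against 4109 (-2.41) and Colgalt2 16 against 172 (-3.25). Serpinh1 was on the lower side with Bmp1, while P4hb was on the higher side under the deposited scaling. P4hb falls under the 2-fold rule with the keratin scaling's shift of -0.76.

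**Figure D4:**
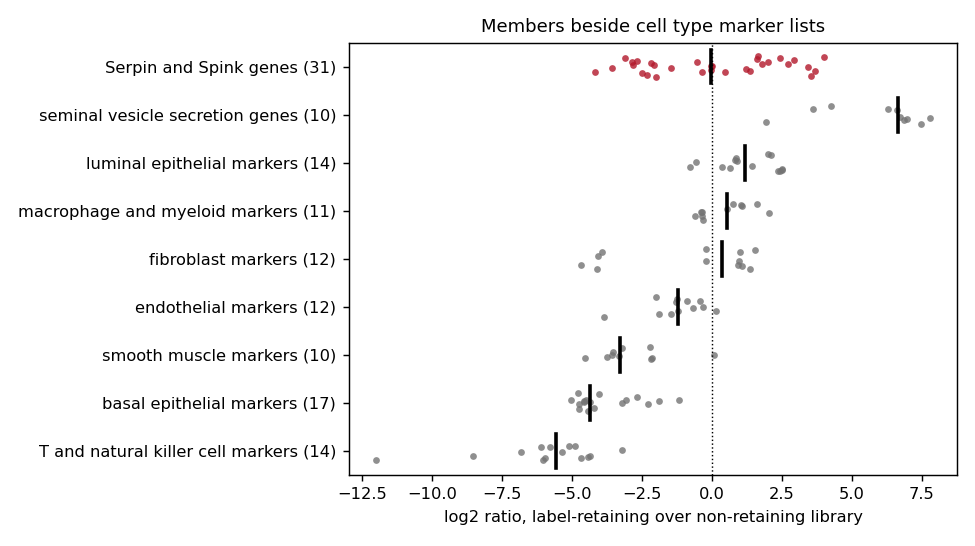
Log2 ratio (label-retaining over non-retaining library, x axis) of single genes in the Serpin and Spink families (red, 31 measured) and in 8 marker lists (grey), with black lines for the medians and the number measured in brackets (genes at 0 reads in a library are drawn with the added 0.5). The members spread from -4.16 to 3.99, across the gap between the basal markers (median -4.36) and the luminal markers (median 1.17).

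The remaining target lists differed from one another. The leukocyte granule list holds proteases and also Prf1 and Srgn, which are not proteases. It had 0 higher and 8 lower of 11 measured, against 14.5% and 19.4% of all measured genes, in the same direction as Serpinb9. Under the keratin scaling 0 were higher and 9 lower, against 5.35% and 40.5%. Srgn, the proteoglycan that packs the granules, had 384 reads against 6415 (-3.93), and Prf1 had 13 against 827 (-5.80). Lysosomal cathepsins and caspases had 0 higher and 4 lower of 11, against 14.5% and 19.4% of all measured genes. Under the keratin scaling 0 were higher and 7 lower, against 5.35% and 40.5%. Ctsl had 5162 reads against 15036 (-1.41) and Casp4 798 against 2644 (-1.59). Ctsb, which had the most reads summed over both libraries, had 7789 against 12659 (-0.57) and was not called. Among 10 measured genes of the trypsin, chymotrypsin and elastase family, 3 were higher and 2 lower, against 14.5% and 19.4% of all measured genes. The lower count thus lay near the share of all genes. Under the keratin scaling 3 of 11 were higher and 5 lower, against 5.35% and 40.5% of all measured genes. Tmprss2, an androgen-regulated membrane protease, had 15154 reads in the label-retaining library and 2489 in the non-retaining library (2.74), and Prss8, prostasin, 8847 against 2672 (1.86). St14, which encodes matriptase and had the most reads summed over both libraries, had 22099 against 12632 (0.94) and was not called, while Prss22 (71 against 553, -2.82) and Prss23 (1135 against 5366, -2.11) were lower.

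Other families of protease inhibitors were mixed too. Of 33 measured, 9 were higher and 8 lower, against 14.5% and 19.4% of all measured genes. The list's median log2 ratio was 0.08. Under the keratin scaling the median was -0.68, beside -0.78 for all measured genes. With that scaling 5 were higher and 14 lower, against 5.35% and 40.5% of all measured genes, so the lower count lay near the share of all genes. The metalloprotease inhibitor Timp3, with the most reads summed over both libraries, had 15903 reads in the label-retaining library and 73404 in the non-retaining library (-2.07). Spock1 had 60 against 2287 (-5.11) and Papln 655 against 11073 (-3.94). On the higher side, the whey acidic protein domain gene Wfdc8 had 53 reads against 4 (3.69, 2.42 to 5.79), and Wfdc15b had 62 against 1 (5.47, 3.56 to 11.4). The inhibitors farthest from equality on the higher side were thus of low count. The abundant Spint1 and Spint2, Kunitz-type inhibitors of matriptase and prostasin chosen after their values were seen, were also higher. Spint1 had 13736 reads against 3847 (1.97) and Spint2 24579 against 11896 (1.18). Spint2 falls under the 2-fold rule with the keratin scaling's shift of -0.76.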

How the data were processed

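Sorted cells gave total RNA, from which stranded Illumina TruSeq libraries were built, per the labels' protocols. Per the submitters' processing notes, the tools included DESeq 1.16.0, Bowtie2 2.1.0, TopHat2 2.0.10, HTSeq 0.6.0 and CASAVA 1.8.2, and the build was mm10. Those notes, as used here, list no role for any tool. The deposited values are a normalised signal: all were whole multiples of a constant step per library (largest deviation 4.7e-09 reads), as read counts that the authors divided by 1 size factor each, 1.00 and 1.10, would be. Reads were recovered by dividing by the step.

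Symbols were found for 18634 identifiers and 90 had none. Positions and exon lengths came from GENCODE M21 (GRCm38, also called mm10). Log2 ratios used a pseudocount of 0.5 and exact Clopper-Pearson 95% counting intervals (scipy 1.17.1). Counting precision depends on reads per gene, and reads without molecular identifiers are not independent molecules. The calculation was tested on simulated counts. A fold against 0 reads used a floor of 3 reads in that library.

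Members called by size or with at least 200 normalised counts are named with values, except 1 member that is counted but not reported here and is left out of the plots by gene. From each of 15 lists the text draws on the 2 called genes per direction whose counting interval bound nearest to equality lies farthest from 0, and the gene with the most normalised counts summed over both libraries. Members, lists and motifs were chosen with earlier results of these data known. Alternatives varied pseudocount, filter, scaling and fold.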

Additional observations from a re-analysis of the deposited data

How the results depend on the processing

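The 13 higher and 12 lower calls were kept with pseudocounts of 1 and 5, with scaling by total reads, and with median-of-ratios or TMM (trimmed mean of M-values) factors of these libraries. Scaling by total reads moved log2 ratios by -0.20, less at low counts. The keratin scaling left 7 higher members, losing Serpinb11, Serpinb6a, Serpine2, Serpinf2, Spink2 and Spink5, and kept all 12 lower ones among 14. Under it 923 of all 17256 measured genes were higher and 6984 lower. Its shift of -0.76 accounts for these losses except that of Spink2, whose rescaled mean fell under the minimum of 10. A 4-fold rule gave 8 higher and 10 lower members. Without a filter there were 13 and 14, and with a minimum of 50 there were 10 and 10. No called member reversed under the pseudocounts and scalings run. Low depth limits Serpina1f, Serpinf2, Serpina3m and Spink2 most. No paired analysis was possible because each group had 1 library, and for the same reason no library could be left out.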
